A study of Mus musculus with 193 samples.

Results

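The genes described here are 10 members of the p53 pathway and of the BCL2 family: Trp53, Mdm2, Cdkn1a, Pmaip1, Bbc3, Bax, Bak1, Bcl2, Bcl2l1 and Mcl1. They were taken by symbol from the deposited expression table, and all 10 were found among its 19557 genes. Single cells positive for an Id4-eGFP reporter had been sorted from mouse testes and profiled by RNA sequencing, in a study of the homeobox gene Rhox10. There were 69 cells from postnatal day 3 (P3) testes labelled Rhox10 knockout (KO), 53 wild-type (WT) cells from postnatal day 7 (P7) and 71 WT cells from P3. Every group was sorted for the reporter, so cells without its signal are not represented, and 1 KO-labelled cell is marked in the labels as lacking raw data. Letters in the sample titles, which the labels do not explain, divide the KO-labelled cells into sets A (21 cells), B (12) and C (36), the WT P7 cells into sets A (12) and B (41), and the WT P3 cells into sets A (16) and B (55). No animal, litter or culture is named in the labels. Each group therefore counts as 1 sample, no test was made, and the sets only show how far a difference repeats.

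The transcription factor p53, encoded by Trp53, accumulates and is activated after DNA damage and other stress, mainly through control of the protein rather than of its RNA. It switches on genes that stop the cell cycle, such as Cdkn1a, its own ubiquitin ligase Mdm2, and genes that start mitochondrial apoptosis, such as Bbc3, Pmaip1 and Bax. In that pathway BH3-only proteins such as those of Bbc3 and Pmaip1 each bind and block some or all of the survival proteins. Among these are BCL2, BCL-XL (from Bcl2l1) and MCL1, which otherwise hold the pore-forming proteins BAX and BAK in check. Germ cells of the neonatal testis undergo a wave of apoptosis, and the balance of these proteins is known to affect how many spermatogonia survive.

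Promoter windows of 250 bases before the RefSeq start (GRCm38.p6, the assembly behind mm10) were available for 9 members, with 14 windows in all, and were searched on both strands for the p53 half-site. A half-site was present in 4 of these 14 windows, against 7.12% of 32536 promoter windows of the same length. The windows of Cdkn1a, Mdm2 and Bax, all textbook p53 targets, are shown because they hold such a match, which is in capitals. Each is written 5′ to 3′ on the strand of the gene.
Cdkn1a, chr17:29090729-29090978, plus strand: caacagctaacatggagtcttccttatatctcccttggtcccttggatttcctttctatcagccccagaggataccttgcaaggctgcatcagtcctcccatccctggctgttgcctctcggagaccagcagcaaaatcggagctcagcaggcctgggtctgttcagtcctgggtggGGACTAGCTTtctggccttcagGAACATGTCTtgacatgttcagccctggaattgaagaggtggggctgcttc
Mdm2, chr10:117710759-117711008, minus strand: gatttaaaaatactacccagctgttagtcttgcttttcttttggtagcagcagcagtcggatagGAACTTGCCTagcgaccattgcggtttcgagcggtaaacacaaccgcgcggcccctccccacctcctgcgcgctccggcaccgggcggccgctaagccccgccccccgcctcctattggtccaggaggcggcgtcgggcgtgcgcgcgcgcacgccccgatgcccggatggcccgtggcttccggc
Bax, chr7:45466899-45467148, minus strand: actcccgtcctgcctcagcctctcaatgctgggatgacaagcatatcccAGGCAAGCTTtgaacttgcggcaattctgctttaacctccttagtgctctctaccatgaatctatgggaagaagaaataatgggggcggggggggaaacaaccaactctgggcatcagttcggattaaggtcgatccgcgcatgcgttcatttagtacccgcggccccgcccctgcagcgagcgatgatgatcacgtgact
Cdkn1a has windows for 2 RefSeq starts. The one shown is of the first, and the other, of the start further downstream, held no half-site. The window shown carried 2 half-sites, the first starting at position -73 relative to its RefSeq start. They lay close enough to match the pattern searched for a whole p53 response element (half-sites 0 to 13 bases apart). That longer match was found in 21 windows, or 0.0645% of all. The half-site of Mdm2 started at -186. The window of Trp53 also held a half-site, while none was found in the 3 windows of Bbc3. A match describes the letters of a window and is no measurement of binding.

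Values are in RPM, the reads of a gene scaled to a common total per cell, and a level is the mean over cells of log2(RPM + 1). This scale understates the change of low genes. Sets were weighted equally to give the value of a group, and beside a difference stands its range over all pairs of 1 set from each group. There were 6 pairs for KO-labelled P3 against WT P3 and 4 for WT P7 against WT P3. Both comparisons use the same WT P3 cells. As an alternative scale, each cell was rescaled to 1814 genes detected in at least 95% of cells. Recovered reads on genes had medians of 608841 per KO-labelled cell, 507865 per WT P7 cell and 514921 per WT P3 cell. All 193 cells had the germ cell genes Ddx4 or Dazl above 1 RPM.

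KO-labelled set A stood apart in its markers. The mean level of 4 spermatogonial markers (Id4, Gfra1, Zbtb16, Kit) was 1.42 in KO-labelled set A, while it was 3.33 and 3.29 in KO-labelled sets B and C, 3.22 and 3.58 in sets A and B of WT P7, and 3.26 and 3.35 in sets A and B of WT P3. The mean of 6 Sertoli cell markers was 1.33 in KO-labelled set A, 0.28 and 0.31 in KO-labelled sets B and C, 0.00 and 0.10 in the WT P7 sets, and 0.73 and 0.53 in the WT P3 sets. Over 12 S-phase and 14 G2/M genes the mean levels were 2.61 and 1.34 in KO-labelled set A, while S phase stood at 4.85 and 4.79 and G2/M at 3.57 and 4.37 in KO-labelled sets B and C, and at 3.62 and 4.25 (S phase) and 3.11 and 3.83 (G2/M) in sets A and B of WT P3. Endothelial markers had a mean level of 0.88 in KO-labelled set A, 0.46 and 0.40 in KO-labelled sets B and C, and 0.71 and 0.42 in the WT P3 sets. For myoid or stromal markers it was 0.80 in KO-labelled set A, 0.51 and 0.28 in KO-labelled sets B and C, and 0.30 and 0.33 in the WT P3 sets. The level of Rhox10 RNA was 2.48, 2.62 and 0.83 in KO-labelled sets A, B and C, against 1.78 and 1.49 in sets A and B of WT P3, so it was below WT P3 only in KO-labelled set C. The group is therefore called KO-labelled, and its results are given with and without set A.

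Per kilobase of annotated exon, the 10 genes fell into a high and a low tier in every group. Pmaip1, Mcl1, Mdm2, Bcl2l1, Bax and Trp53 had mean RPM per kilobase between 2.76 (Trp53) and 18.8 (Pmaip1) in KO-labelled cells, between 3.31 (Mdm2) and 6.90 (Trp53) in WT P7 cells, and between 1.87 (Trp53) and 14.4 (Pmaip1) in WT P3 cells. Cdkn1a lay between the tiers, at 0.679, 0.679 and 0.554 RPM per kilobase in KO-labelled, WT P7 and WT P3 cells. Bbc3, Bak1 and Bcl2 were at or below 0.335 RPM per kilobase in every group. Pmaip1 was the first of the 10 genes in KO-labelled and WT P3 cells. With sets weighted equally, Trp53 was the first in WT P7 cells, where Pmaip1 came after Trp53 and Mcl1. That order rested on WT P7 set A, where Trp53 averaged 37.7 RPM and Pmaip1 13.8 RPM. In WT P7 set B they averaged 18.2 and 17.4 RPM, over exons of 4045 and 2732 bases. Per kilobase, Pmaip1 was thus above Trp53 in WT P7 set B.

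**Figure D1:**
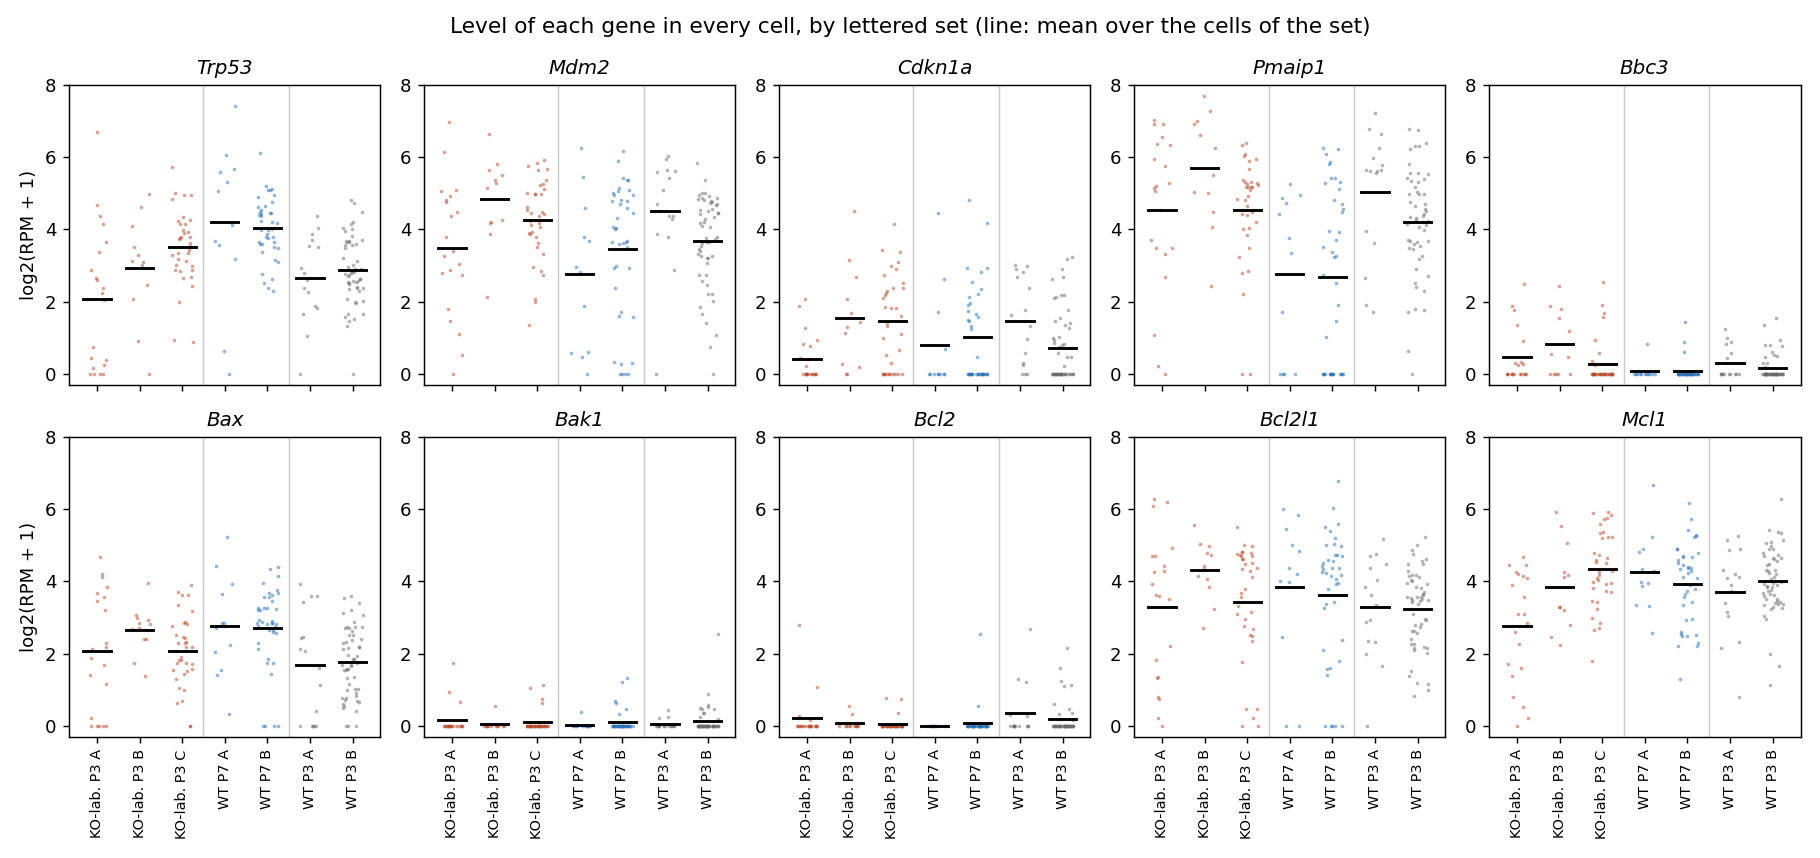
Level of each of the 10 genes, as log2(RPM + 1), in every cell, by lettered set; points are cells and lines are set means. Pmaip1 shows a row of WT P7 cells at 0, and Bbc3, Bak1 and Bcl2 are at 0 in most cells of every set.

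In WT P7 cells, Trp53 and Bax were higher and Pmaip1 and Mdm2 were lower than in WT P3 cells, in every pair of sets, both on the deposited scale and after rescaling. The p53 gene and its ligase gene thus lay on opposite sides. Pmaip1 had the widest difference of the 10 genes, at -1.90 on the log2 scale, and Trp53 the widest in the other direction, at 1.35. Of the 7 members whose mean level reached 0.5, Trp53, Bax and Bcl2l1 were higher without overlap of the sets, against a background of 32.9% of 9659 genes. Mdm2 and Pmaip1 were lower without overlap, against 18.7% of these genes. Bbc3, Bak1 and Bcl2 did not reach that level in either comparison. Such a count over so few members is not apart from the background. By size, 1.47% of the genes had a higher difference than Trp53, and 0.176% a lower one than Pmaip1. These ranks belong to the widest member in each direction, and the members were chosen with earlier results of these data known. The ranks therefore only describe these genes.

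Trp53 (mm10 chromosome 11, 69580359 to 69591873, plus strand) had a lowest, median and highest value of 0, 24.5 and 170.1 RPM in WT P7 set A and of 3.93, 15.2 and 68.4 RPM in WT P7 set B, against 0, 5.49 and 19.6 RPM in WT P3 set A and 0, 5.96 and 27.1 RPM in WT P3 set B. The medians of both WT P7 sets lay above those of both WT P3 sets, while single cells of the ages overlapped widely. Mean levels were 4.19 ± 2.17 and 4.03 ± 0.84 in sets A and B of WT P7, against 2.65 ± 1.19 and 2.87 ± 0.94 in sets A and B of WT P3 (SD between cells). The pairs ranged from 1.16 to 1.54 around the difference of 1.35. In mean RPM, with sets weighted equally, WT P7 had 27.9 and WT P3 had 7.57, a ratio of 3.69. The WT P7 value joins 37.7 RPM in set A, whose highest cell had 170.1 RPM, with 18.2 RPM in set B, and the ratio was 2.40 without WT P7 set A. Nearly every cell contained the transcript: 96.2% of WT P7 cells (95% interval 87.0% to 99.5%) and 97.2% of WT P3 cells (90.2% to 99.7%) were above 1 RPM. The ages thus differed in the amount of Trp53 RNA among cells that had it, and little in how many cells had it.

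Mdm2, which encodes the ligase that marks p53 for destruction (chromosome 10, 117688875 to 117710758, minus strand), had 0, 6.41 and 75.3 RPM (lowest, median, highest) in WT P7 set A and 0, 15.2 and 70.7 RPM in WT P7 set B, against 0, 23.4 and 63.8 RPM in WT P3 set A and 0, 12.9 and 55.9 RPM in WT P3 set B. The median of WT P7 set B was above that of WT P3 set B, although its mean level was lower. Mean levels were 2.76 ± 2.08 and 3.46 ± 1.87 in sets A and B of WT P7, against 4.51 ± 1.49 and 3.67 ± 1.26 in sets A and B of WT P3, a difference of -0.98 with pairs from -1.76 to -0.21. The WT P3 sets differed from each other by nearly as much as the groups did. Fewer WT P7 cells had Mdm2 above 1 RPM, with 79.2% (65.9% to 89.2%) against 95.8% (88.1% to 99.1%) of WT P3 cells. Among the cells above 1 RPM, the mean level was 3.92 ± 1.44 and 4.14 ± 1.19 in sets A and B of WT P7, against 4.81 ± 0.91 and 3.79 ± 1.10 in sets A and B of WT P3, and the ages overlapped there. Mean RPM was 16.8 in WT P7 and 23.1 in WT P3, but the sets overlapped on that measure (18.4 in WT P7 set B, 16 in WT P3 set B) and with a pseudocount of 10. The difference in level was -0.56 without WT P3 set A and -0.63 without WT P7 set A.

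Cdkn1a encodes p21, the cell cycle inhibitor through which p53 halts division. Its median was 0 RPM in both WT P7 sets and in WT P3 set B, and 1.82 RPM in WT P3 set A, and its highest cell had 21 and 27.4 RPM in sets A and B of WT P7, against 7.12 and 8.45 RPM in sets A and B of WT P3. The sets overlapped, with a difference of -0.20 and pairs from -0.68 to 0.29. Mean RPM went the other way, with 2.41 in WT P7 and 1.97 in WT P3, so no direction was given. The share of cells above 1 RPM was 39.6% (26.5% to 54%) in WT P7 and 35.2% (24.2% to 47.5%) in WT P3.

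Pmaip1 encodes NOXA, a BH3-only protein best known for neutralising MCL1. It had 0, 10.8 and 37.2 RPM (lowest, median, highest) in WT P7 set A and 0, 8.43 and 75.4 RPM in WT P7 set B, against 2.26, 48.4 and 149.6 RPM in WT P3 set A and 0, 18.9 and 109.8 RPM in WT P3 set B. Both WT P7 medians lay below both WT P3 medians. Mean levels were 2.75 ± 2.24 and 2.68 ± 2.38 in sets A and B of WT P7, against 5.03 ± 1.73 and 4.21 ± 1.46 in sets A and B of WT P3, and the pairs of the difference ran from -2.35 to -1.45. Mean RPM was 15.6 in WT P7 and 39.3 in WT P3, a ratio of 0.396.

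Pmaip1 RNA was detected in fewer WT P7 cells than WT P3 cells. The median number of genes above 1 RPM per cell was also lower, at 6530 in WT P7 and 7072 in WT P3. The part of this in the Pmaip1 shares was not tested. Pmaip1 was above 1 RPM in 34 of 53 WT P7 cells (64.2%, interval 49.8% to 76.9%) and in 69 of 71 WT P3 cells (97.2%, 90.2% to 99.7%). The share was 66.7% and 63.4% in sets A and B of WT P7, against 100% and 96.4% in sets A and B of WT P3. No WT P7 cell lay between 0 and 1 RPM, since the number of cells with any read was also 34. Among the cells above 1 RPM, the median was 22.9 and 22 RPM in sets A and B of WT P7, against 48.4 and 19.4 RPM in sets A and B of WT P3. The mean level of these cells was 4.13 ± 1.17 and 4.23 ± 1.49 in sets A and B of WT P7, against 5.03 ± 1.73 and 4.36 ± 1.27 in sets A and B of WT P3. The amount in cells with the transcript was thus well below WT P3 set A and close to WT P3 set B. With every cell thinned to 100000 reads on genes, and 5 shallower WT P3 cells left out, 62.3% of WT P7 cells and 97.0% of WT P3 cells kept a Pmaip1 read, so the gap was as wide at equal depth.

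Bbc3, which encodes PUMA, the other BH3-only protein of the set, was near its detection limit. It was above 1 RPM in 1 of 53 WT P7 cells (1.89%, 0.0478% to 10.1%) and in 3 of 71 WT P3 cells (4.23%, 0.880% to 11.9%). Its levels were 0.07 and 0.07 in sets A and B of WT P7, against 0.31 and 0.16 in sets A and B of WT P3, with both WT P7 sets below both of WT P3. Bbc3 reads came to 12 over all WT P7 cells and to 79 over all WT P3 cells.

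Bax, which encodes the main pore-forming effector (chromosome 7, 45461697 to 45466898, minus strand), had 0.254, 5.83 and 36.4 RPM (lowest, median, highest) in WT P7 set A and 0, 6.22 and 20.1 RPM in WT P7 set B, against 0, 2.59 and 14.2 RPM in WT P3 set A and 0, 2.36 and 11 RPM in WT P3 set B. Both WT P7 medians were above both WT P3 medians, and the sets of each age lay close together. Mean levels were 2.76 ± 1.38 and 2.72 ± 1.13 in sets A and B of WT P7, against 1.67 ± 1.48 and 1.76 ± 0.96 in sets A and B of WT P3, a difference of 1.03 with pairs from 0.96 to 1.09. Mean RPM was 8.27 in WT P7 and 3.63 in WT P3, a ratio of 2.28. The share of cells above 1 RPM was 90.6% (79.3% to 96.9%) in WT P7 and 70.4% (58.4% to 80.7%) in WT P3. At 100000 reads per cell the shares with a read came closer, at 84.9% in WT P7 and 75.8% in WT P3, and the difference in level was 0.51. Part of the annotated exons of Bax, 192 bases or 12.2%, is shared on the same strand with Gm45808. Bak1, the second effector, was above 1 RPM in 2 of 53 WT P7 cells and 1 of 71 WT P3 cells, with group levels of 0.07 and 0.09.

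Among the survival genes, Bcl2l1 had a median of 18.6 and 17.7 RPM in sets A and B of WT P7, against 10.3 and 10.2 RPM in sets A and B of WT P3. Its level was higher in WT P7 by 0.47, with pairs from 0.34 to 0.61. After rescaling the difference was 0.13, and with cells thinned to 100000 reads on genes it was 0.05, and the sets overlapped in both. Fewer WT P7 cells had Bcl2l1 above 1 RPM, 86.8% (74.7% to 94.5%) against 95.8% (88.1% to 99.1%) of WT P3 cells, so the values were spread more widely at P7.

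Mcl1 was detected in more cells than the other survival genes. Its medians were 16.7 and 17.9 RPM in sets A and B of WT P7, against 15 and 14.6 RPM in sets A and B of WT P3, and it was above 1 RPM in all 53 WT P7 cells and in 70 of 71 WT P3 cells. The sets overlapped (difference 0.24, pairs from -0.08 to 0.56). Bcl2 itself was scarce. It was above 1 RPM in 1 of 53 WT P7 cells (1.89%, 0.0478% to 10.1%) and in 8 of 71 WT P3 cells (11.3%, 4.99% to 21%), and no read was found in the 12 cells of WT P7 set A, where 3 reads would correspond to 0.0712 RPM.

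Rescaling moved the median difference of all genes between the ages to -0.12, from 0.10 on the deposited scale. The rescaled differences were 1.00 for Trp53, 0.78 for Bax, -1.32 for Mdm2 and -2.23 for Pmaip1, all without overlap of the sets, and the background became 19% higher and 32.9% lower. Other measures differed with age as well. The mean level of 9 immediate early genes was 1.43 and 1.49 in sets A and B of WT P7, against 2.37 and 2.31 in sets A and B of WT P3, and the Sertoli markers were lower in WT P7 as given above, with Sox9, Wt1 and Clu at 0.00 in WT P7 set A. Over 14 G2/M genes the mean level was 2.47 and 4.84 in sets A and B of WT P7, against 3.11 and 3.83 in sets A and B of WT P3, so the WT P7 sets lay on either side of WT P3. The part of these measures in the differences was not tested, and age cannot be told apart from the preparation of each set.

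**Figure D2:**
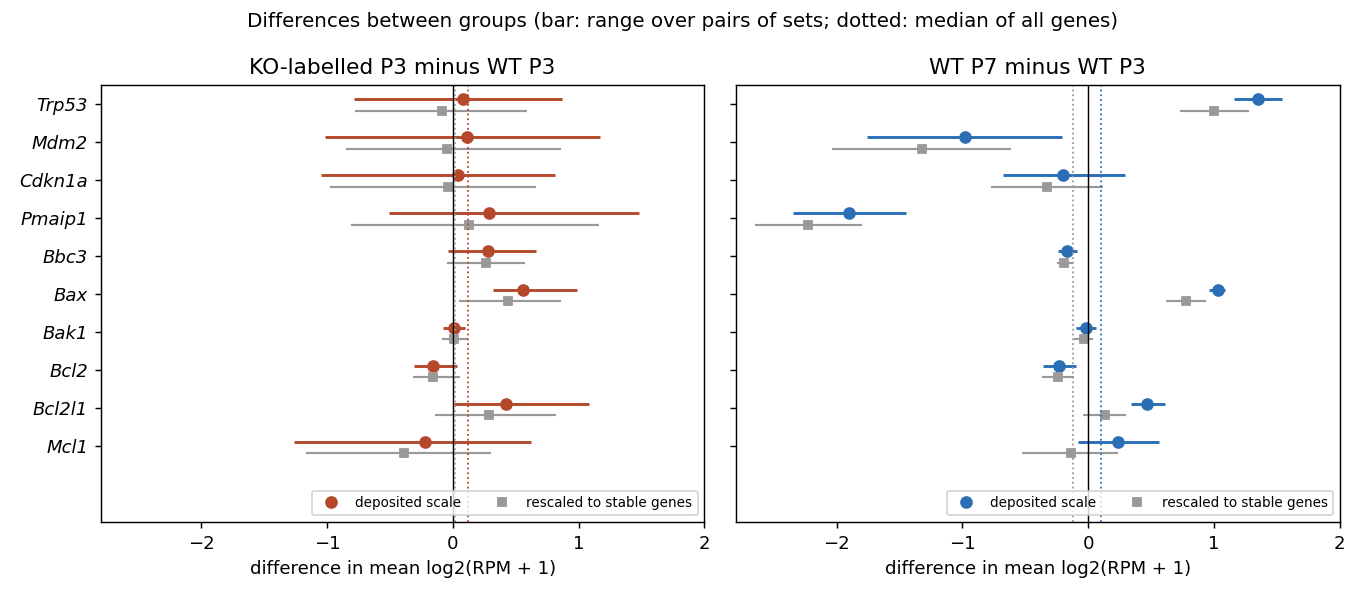
Difference in mean log2(RPM + 1) of each gene, KO-labelled P3 minus WT P3 on the left and WT P7 minus WT P3 on the right; circles are on the deposited scale, squares after rescaling, bars span all pairs of sets and dotted lines mark the median of all genes. Trp53 (1.35) and Bax (1.03) lie to the right and Mdm2 (-0.98) and Pmaip1 (-1.90) to the left of 0 at P7, while most bars of the KO-labelled cells cross 0.

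Between KO-labelled and WT P3 cells, Bax and Bcl2l1 were higher and no member whose level reached 0.5 was lower without overlap of the sets. Over 10147 genes the background was 16.4% higher and 5.78% lower, so 2 of 7 members is near what all genes gave. The median difference of the 7 members was 0.11, and that of all genes 0.12, or -0.04 and 0.02 after rescaling. Without KO-labelled set A the median of these members was 0.46 and that of all genes 0.19, or 0.18 and 0.00 after rescaling. Without WT P3 set A the medians were 0.44 for the members and 0.14 for all genes. After rescaling, with a background of 10.6% higher and 11.1% lower, Bax stayed without overlap and Bcl2l1 did not.

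Bax had 0, 3.40 and 24.7 RPM (lowest, median, highest) in KO-labelled set A, 1.62, 5.83 and 14.5 RPM in set B and 0, 3.36 and 13.9 RPM in set C, against WT P3 medians of 2.59 and 2.36 RPM in sets A and B. All KO-labelled medians lay above both WT P3 medians, by little in sets A and C. Mean levels were 2.08 ± 1.63, 2.66 ± 0.65 and 2.08 ± 0.98 in KO-labelled sets A, B and C, against 1.67 ± 1.48 and 1.76 ± 0.96 in sets A and B of WT P3. The difference was 0.56, with pairs from 0.32 to 0.99, and 0.44 after rescaling. Bax was above 1 RPM in 84.1% of KO-labelled cells (73.3% to 91.8%) and 70.4% of WT P3 cells (58.4% to 80.7%), but at 100000 reads per cell 79.7% of KO-labelled cells and 75.8% of WT P3 cells had a read, and the difference in level was 0.17. With a pseudocount of 0.1 the sets overlapped, and without KO-labelled set B the difference was 0.36. Without KO-labelled set A the difference was 0.65, and 0.46 after rescaling, again without overlap; the background without set A was 35.8% higher, or 17.6% higher and 20.1% lower after rescaling.

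Bcl2l1 had medians of 11.4, 19.8 and 14.5 RPM in KO-labelled sets A, B and C, against 10.3 and 10.2 RPM in sets A and B of WT P3. Its levels were 3.29 ± 2.00, 4.32 ± 0.80 and 3.43 ± 1.59 in KO-labelled sets A, B and C, against 3.28 ± 1.38 and 3.24 ± 1.09 in sets A and B of WT P3. KO-labelled set A was thus level with WT P3 set A, and the lowest pair differed by 0.01. The group difference was 0.42, or 0.29 after rescaling, where the sets overlapped, as they did with a pseudocount of 0.1 and after thinning. It was 0.10 without KO-labelled set B, and 0.61 without KO-labelled set A.

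The p53 gene and its ligase gene varied more among the KO-labelled sets than between the groups. Trp53 levels were 2.08 ± 1.93, 2.93 ± 1.43 and 3.51 ± 1.03 in KO-labelled sets A, B and C, against 2.65 ± 1.19 and 2.87 ± 0.94 in sets A and B of WT P3. Trp53 was above 1 RPM in 57.1% of cells in KO-labelled set A (34% to 78.2%), 83.3% in set B and 94.4% in set C, while WT P3 sets A and B had 93.8% and 98.2%. KO-labelled set A, the set with low Id4, Gfra1 and Zbtb16, was the lowest of all 7 sets for Trp53, and for Mcl1, whose level was 2.76 there and between 3.71 and 4.33 in the other 6 sets. Without KO-labelled set A, Trp53 was higher in KO-labelled cells by 0.46 with pairs from 0.06 to 0.87, against the background of 35.8%. After rescaling without set A the Trp53 difference was 0.18 and the sets overlapped. Mdm2 levels were 3.5, 4.84 and 4.25 in KO-labelled sets A, B and C, against 4.51 and 3.67 in sets A and B of WT P3. The Mdm2 difference of 0.11 was 0.46 without KO-labelled set A, with pairs from -0.26 to 1.17, 0.53 without WT P3 set A, -0.22 without KO-labelled set B and -0.32 without WT P3 set B. The part of the markers and cell cycle genes given above in the low values of set A was not tested.

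Cdkn1a and the BH3-only genes showed the same unevenness. Cdkn1a was above 1 RPM in 14.3% of cells of KO-labelled set A (3.05% to 36.3%), 66.7% of set B and 58.3% of set C, against 56.2% and 29.1% of WT P3 sets A and B. Pmaip1 had medians of 34.7, 59.4 and 31.1 RPM in KO-labelled sets A, B and C, against 48.4 and 18.9 RPM in sets A and B of WT P3. Both genes overlapped between the groups, with differences of 0.04 for Cdkn1a and 0.29 for Pmaip1, and single sets decided both values. For Cdkn1a the difference was 0.39 without KO-labelled set A (pairs from -0.02 to 0.81), 0.41 without WT P3 set A and -0.34 without WT P3 set B, and it was -0.16 and -0.12 without KO-labelled sets B and C. For Pmaip1 it was 0.49 without KO-labelled set A (pairs from -0.50 to 1.48), -0.09 without KO-labelled set B and -0.12 without WT P3 set B. It was 0.71 without WT P3 set A, where the sets did not overlap. Fewer pairs then have to share a sign. Of 51 genes in the 4 pathway lists below, 18 were higher without WT P3 set A, against 8 with all sets.

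Bbc3 was the member with the widest ratio of mean RPM between KO-labelled and WT P3 cells, at 3.10, from very low values of 0.712 and 0.230 RPM. It was above 1 RPM in 13 of 69 KO-labelled cells (18.8%, 10.4% to 30.1%) and in 3 of 71 WT P3 cells (4.23%, 0.880% to 11.9%). The share was 19%, 41.7% and 11.1% in KO-labelled sets A, B and C, each above the 6.25% and 3.64% of WT P3 sets A and B. The intervals were wide, at 3.11% to 26.1% in KO-labelled set C and 0.158% to 30.2% in WT P3 set A. This order of the sets was not kept for cells with any read or after thinning, as given below. The mean levels also overlapped, at 0.46, 0.82 and 0.27 in KO-labelled sets A, B and C against 0.31 and 0.16 in sets A and B of WT P3. The difference in level was 0.28, and 0.31 without KO-labelled set A, with overlap in both. The sets did not overlap without KO-labelled set C (0.40) or without WT P3 set A (0.35), where fewer pairs have to share a sign. Of 51 genes in the 4 pathway lists below, 10 and 18 were higher without these sets, against 8 with all sets. With cells thinned to 100000 reads, 21.7% of KO-labelled cells and 15.2% of WT P3 cells had a Bbc3 read. By set, KO-labelled set C (11.1%) was then below WT P3 sets A and B (26.7% and 11.8%). KO-labelled set A (23.8%) lay between them, and KO-labelled set B was above both. Cells with any Bbc3 read were 34.8% of KO-labelled and 26.8% of WT P3 cells, so the groups differed mainly in cells with more than a few reads.

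Mcl1, Bcl2 and Bak1 overlapped between KO-labelled and WT P3 cells. Mcl1 averaged 17.6 RPM in KO-labelled cells and 17.3 RPM in WT P3 cells, and its level differed by -0.22, or by 0.23 without KO-labelled set A. Bcl2 was above 1 RPM in 2 of 69 KO-labelled cells (2.90%, 0.353% to 10.1%), both in set A, and in 8 of 71 WT P3 cells (11.3%, 4.99% to 21%). Without set A its levels were lower without overlap, with a difference of -0.21, from 3 and 7 reads in KO-labelled sets B and C. The background of 9.71% lower covers only genes whose level reached 0.5, which Bcl2 did not. Bak1 was above 1 RPM in 3 KO-labelled cells and 1 WT P3 cell, and its level differed by 0.01, or by -0.02 without KO-labelled set A.

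**Figure D3:**
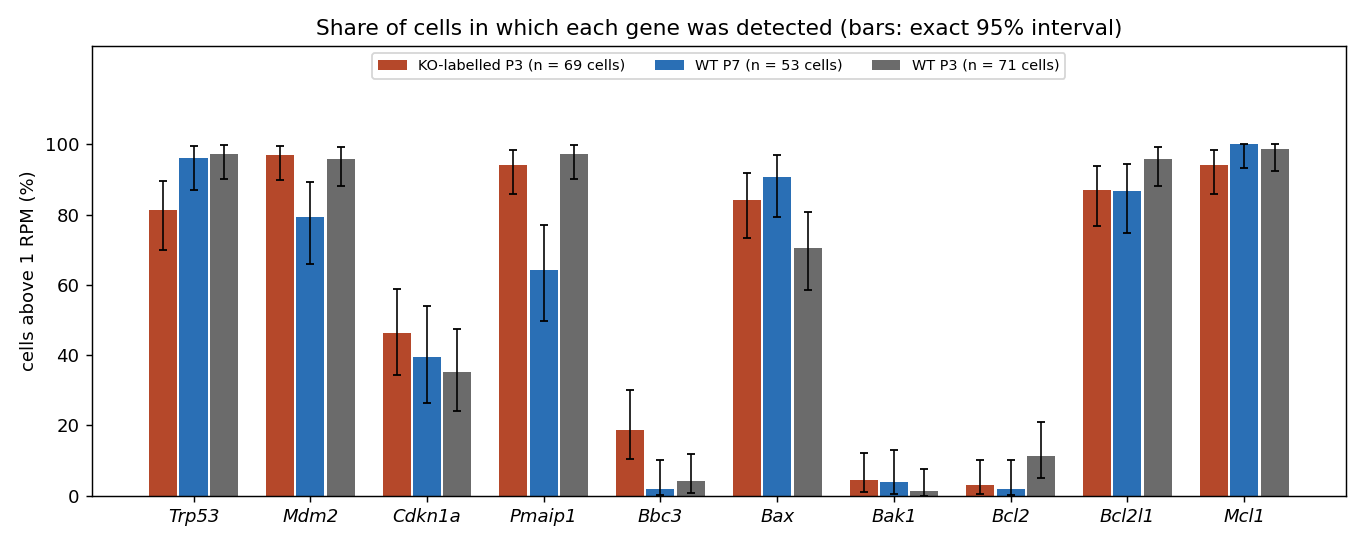
Share of cells in percent with each gene above 1 RPM, for KO-labelled P3 (69 cells), WT P7 (53 cells) and WT P3 (71 cells); error bars are exact 95% intervals, which cover counting error only. Pmaip1 (64.2%) and Mdm2 (79.2%) are lower in WT P7 than in WT P3 (97.2% and 95.8%), and Bbc3 is detected in 18.8% of KO-labelled and 4.23% of WT P3 cells.

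In WT cells, the shares of cells with 1 gene of a pair and not the other followed the shares of each gene. Bax was above 1 RPM without Pmaip1 in 17 of 53 WT P7 cells (32.1%) and in 1 of 71 WT P3 cells (1.41%), while the product of the single shares is 32.5% in WT P7 and 1.98% in WT P3. The reverse, Pmaip1 without Bax, was found in 3 WT P7 cells (5.66%) and in 20 WT P3 cells (28.2%), with products of 6.05% and 28.7%. Trp53 was above 1 RPM without Mdm2 in 20.8% of WT P7 and 4.23% of WT P3 cells, with products of 20% and 4.11%. Per kilobase of exon, Pmaip1 exceeded Bax in 41.5% of WT P7 cells and 88.7% of WT P3 cells, and Mdm2 exceeded Trp53 in 39.6% of WT P7 and 66.2% of WT P3 cells. KO-labelled cells had Bax without Pmaip1 in 1 of 69 cells (1.45%) and Pmaip1 above Bax per kilobase in 81.2%, beside the same WT P3 values. This last share was 66.7%, 91.7% and 86.1% in KO-labelled sets A, B and C.

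**Figure D4:**
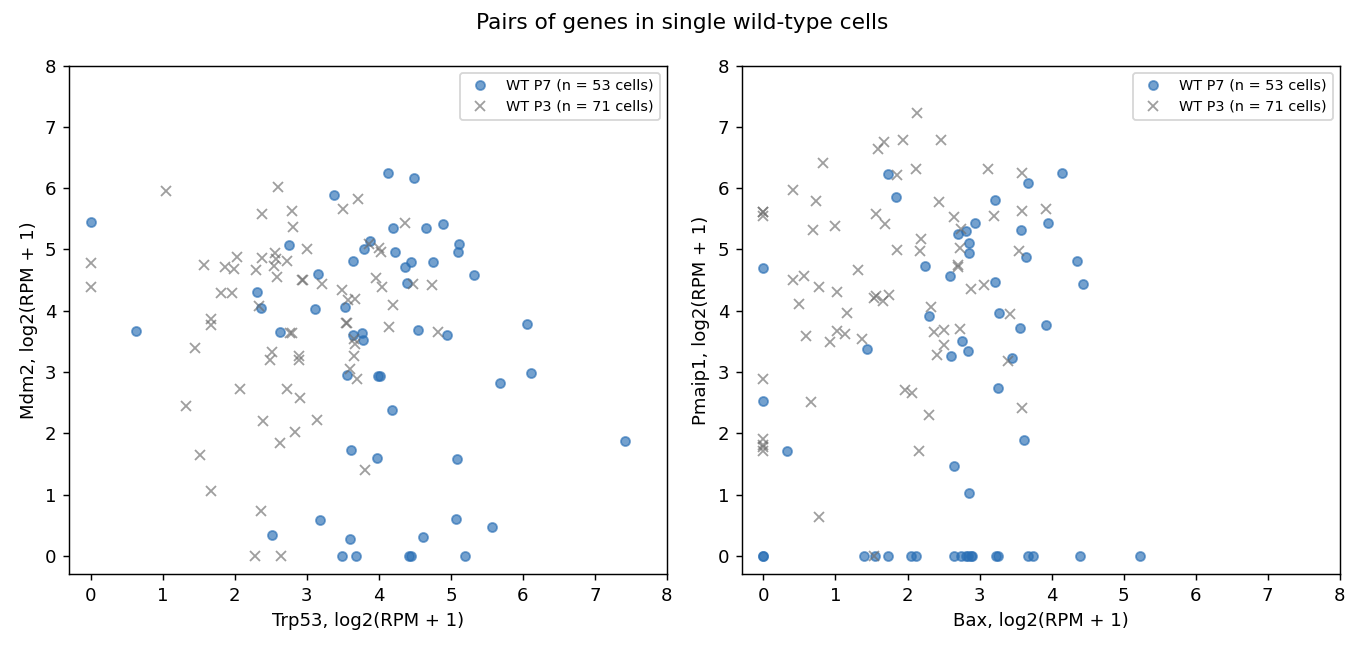
Levels as log2(RPM + 1) of Mdm2 against Trp53 (left) and of Pmaip1 against Bax (right) in single WT cells, with 53 WT P7 cells as filled circles and 71 WT P3 cells as crosses. WT P7 cells line up at 0 for Pmaip1 over a range of Bax levels, where 17 of them have Bax above 1 RPM without Pmaip1.

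Within a set, the members hardly varied together from cell to cell. For the 7 members above 1 RPM in at least 30% of cells, the mean over the 7 sets of the within-set Pearson r lay between -0.10 (Trp53 with Mdm2) and 0.26 (Cdkn1a with Pmaip1) over 21 pairs, with a median of 0.07. Cdkn1a and Pmaip1 had r above 0 in 6 of the 7 sets, from -0.04 to 0.57. Trp53 followed the depth of a cell, with a mean r of 0.36 with the log10 of its reads on genes and r above 0 in all 7 sets. These values describe cells that share a library preparation and depth, and r this weak in sparse counts is no finding.

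Among 4685 genes whose mean level reached 2, the gene most like Cdkn1a across cells was Tubb6 (mean r 0.43 over the 7 sets, from 0.21 to 0.62), and Ap3b1, Lmna, Hsf5 and Myl12a had 0.30 to 0.32. For Pmaip1 these were Actn1 (0.34), Psmf1 (0.33), and Pdha1, Gcsh and Txndc5 (0.32 each). For Bax they were Csrp2bp and Zfp217 (0.37 each), and Eif1ad, Mrpl30 and Pqbp1 (0.35 each). Only Nab1 (0.32), Chmp1a (0.31) and Cfl1 (0.30) reached the limit of 0.3 for Mcl1. Each is the top of a search over all these genes.

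The 4 lists of other pathway genes are read against all genes, of which 32.9% were higher and 18.7% lower in WT P7 without overlap, with a median of 0.10. Of 24 other p53 targets, 19 were measured, of which 4 were higher and 4 lower, with a median of -0.09, and over so few genes such counts are not apart from the background. Ei24, whose product acts at the endoplasmic reticulum, averaged 5.27 RPM in WT P7 and 1.44 RPM in WT P3 (difference 0.79, pairs from 0.32 to 1.27). Aen, a nuclease gene induced by p53, was higher by 0.69 and Apaf1, the scaffold of the apoptosome, by 0.47, although the sets of Apaf1 overlapped after rescaling. Lower were Sesn1, a stress-response regulator of growth signalling (-0.89, pairs from -1.76 to -0.02), Ppm1d, a phosphatase that switches the p53 response off (-0.80, from -1.0 to -0.59), and Rrm2b, a ribonucleotide reductase subunit (-0.61). After rescaling, 3 were higher and 8 lower, with a median of -0.21 beside -0.12 for all genes and a background of 19% and 32.9%.

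Of the enzymes and partners that control p53, 13 of 16 were measured. In WT P7, 3 were higher and 1 lower, with a median of -0.11, beside 32.9% and 18.7% of all genes. Over so few genes such counts are not apart from the background. Crebbp, an acetyltransferase that modifies p53 and histones, averaged 80.9 RPM in WT P7 and 43.1 RPM in WT P3 (difference 1.08, pairs from 0.81 to 1.35). Kat5, another acetyltransferase, was higher by 0.80, and Mdm4, the partner of Mdm2 that restrains p53, by 0.67 (from 0.58 to 0.76). Mdm4 was thus higher in WT P7 where Mdm2 was lower, on both scales. Chek2, a kinase of the DNA damage response, was lower (-0.13). After rescaling, 3 were higher and 5 lower, with a median of -0.31 beside -0.12 for all genes and a background of 19% and 32.9%.

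In the rest of the BCL2 family, 8 of 14 genes were measured in WT P7 against WT P3, with 2 higher, 2 lower and a median of -0.03 beside the same background, which so few genes cannot be told apart from. Bcl2l12 (0.59) and the BH3-only gene Bik (0.41) were higher, and the BH3-only genes Bid (-0.55) and Bcl2l11, which encodes BIM (-0.34), were lower, each on both scales. Bid had the same mean RPM, 12.0, in both ages, so its lower level came from its distribution over cells.

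Downstream of the mitochondria, 11 of 14 genes were measured, with 4 higher and 4 lower in WT P7 and a median of 0.19 beside 0.10 for all genes. Of all genes, 32.9% were higher and 18.7% lower, and counts over so few genes cannot be told apart from that background. After rescaling, 2 were higher and 4 lower, with a median of -0.07 beside -0.12 for all genes. The rescaled background was the same as for the lists above. Parp1, a DNA repair enzyme that caspases cleave, averaged 130.5 RPM in WT P7 and 68.9 RPM in WT P3 (difference 1.09, pairs from 0.82 to 1.36). Dffa, the inhibitor of the apoptotic nuclease, was higher by 0.48. The channel genes of the outer mitochondrial membrane Vdac1 (-0.96) and Vdac2 (-0.72) were lower.

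In KO-labelled against WT P3 cells, single genes of the same lists differed. Of 51 genes measured over the 4 lists, 8 were higher and 2 lower without overlap, against the background of 16.4% and 5.78%. Without KO-labelled set A, 20 were higher and 2 lower, against 35.8% and 9.71% of all genes. The list medians were 0.15 for the other p53 targets, 0.21 for the other BCL2 family genes, -0.03 for the p53 regulators and 0.09 for the mitochondrial genes. Xiap, an inhibitor of caspases, had the widest difference, with 20.8 RPM in KO-labelled and 7.95 RPM in WT P3 cells (difference 1.15, pairs from 0.23 to 2.18). Its levels were 3.15, 4.18 and 3.49 in KO-labelled sets A, B and C, against 2.00 and 2.92 in sets A and B of WT P3. The DNA damage kinase gene Atr was higher by 0.59, and Bcl2l2, which encodes the survival protein BCL-W, by 0.46 with 1.36 RPM in KO-labelled and 0.299 RPM in WT P3 cells. Chek2 (-0.78) and Plk3, a stress-responsive kinase gene (-0.54), were lower on both scales. Both had their lowest level in KO-labelled set A. Chek2 stood at 1.13, 1.59 and 2.00 and Plk3 at 0.22, 0.76 and 0.74 in KO-labelled sets A, B and C. Bik (0.45), Mdm4 (0.44), Crebbp (0.29), Sesn2 (0.26) and Bcl2l11 (0.21) completed the list, and after rescaling the sets of Mdm4, Crebbp, Sesn2 and Bcl2l11 overlapped.

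**Figure D5:**
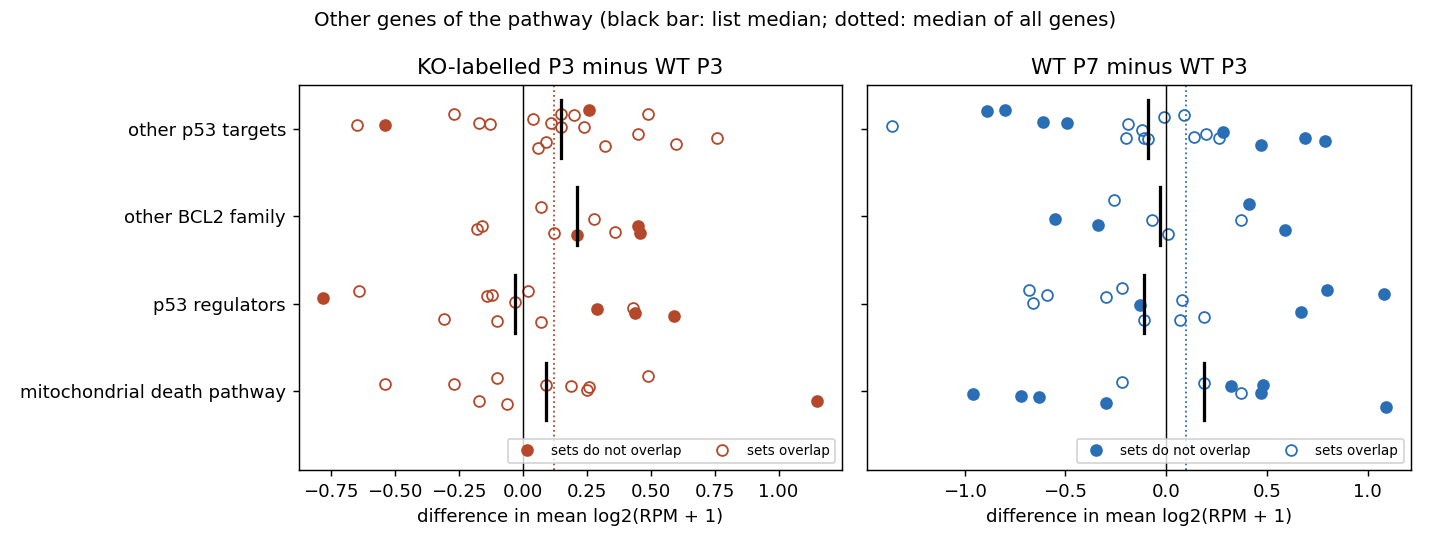
Difference in mean log2(RPM + 1) of each measured gene in 4 lists of the pathway, KO-labelled P3 minus WT P3 on the left and WT P7 minus WT P3 on the right; filled points have sets that do not overlap, black bars are list medians and the dotted line is the median of all genes (0.12 and 0.10). Genes of each list lie on both sides of 0 in both comparisons.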

How the data were processed

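Per the labels' protocols, cDNA was made with SMARTer chemistry on the Fluidigm C1 system, with ERCC spike-ins, and libraries with Nextera XT. STAR 2.3.0, HTSeq 0.6.1 and mm10 are named in the submitters' processing notes. For annotation, strand setting and reads with several alignments, nothing is given in the sources used here. Without strand, reads of Cdkn1a, Bak1 and Bcl2 cannot be separated from overlapping antisense genes, and Trp53 has a pseudogene copy. The deposited table is named as TPM, but its deposited values behaved as RPM: in each cell they were whole multiples of 1 step (tolerance 0.001 RPM, on average 100.0% of values and at least 99.99% in any cell). The listed genes and spike-ins summed to between 8.13% and 23.0% of the total to which values are relative. Although TPM had been planned for, the measures needed no change for RPM. No count test was made on recovered reads, since each group is 1 sample.

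Of 19642 features, 84 spike-ins and Rn45s were left out. Totals per cell ranged from 251530 to 10663507 reads. The pseudocount was 1, and genes counted as measured where their mean level over the groups compared reached 0.5. A gene was called higher or lower only where all pairs of sets had that sign. Intervals are exact (Clopper-Pearson, 95%) and cover counting error only, since amplified reads are not independent molecules. No 2 cells had identical columns, no doublet caller was run, and 5 WT P3 cells had under 100000 reads on genes. Alternatives were other pseudocounts, scales, weightings, thresholds, thinning and leaving out each set. The members and lists were chosen with earlier results of these data known. Named genes were all members, up to 3 highest and 3 lowest genes of each list without overlap, and up to 5 most alike genes. A gene picked by this rule is not reported here. Pidd1, Tigar and Cop1 were matched through RefSeq synonyms. Promoters and starts are from RefSeq (GRCm38.p6), exon lengths from GENCODE vM21. Scripts were tested on simulated data. Tools were Python 3.11.15, numpy 2.4.6, pandas 2.3.3, scipy 1.17.1 and matplotlib 3.10.9.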

Additional observations from a re-analysis of the deposited data

How the results depend on the processing

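Between WT P7 and WT P3, the directions of Trp53, Bax, Bcl2l1, Mdm2 and Pmaip1 held in sign under all 7 other settings and without any set: Trp53 lay between 0.83 and 1.67, Bax between 0.37 and 1.6, Mdm2 between -1.44 and -0.38 and Pmaip1 between -3.01 and -0.91 under other settings. Cdkn1a and Mcl1 changed sign under 4 and 3 alternatives. The median over all 10 members (-0.09) was 0.00 with a pseudocount of 10, -0.38 with 0.1, -0.16 after rescaling, -0.18 scaled to the gene total, 0.10 averaged before the logarithm, 0.02 with cells weighted equally and between -0.11 and 0.01 without a set. Between KO-labelled and WT P3 cells, Bax kept its sign throughout (0.17 to 0.94). The median over all 10 members there (0.09) was between -0.03 and 0.43 without a set, with 0.43 without KO-labelled set A and 0.38 without WT P3 set A. The number of members higher (2) was 0 with a pseudocount of 0.1, 1 rescaled, scaled to the gene total or thinned, 4 averaged before the logarithm and 2 to 4 without a set. The number lower (0) was 1 with a pseudocount of 0.1 and 0 to 1 without a set. Counts over all genes, 1661 higher and 586 lower in KO-labelled cells, were 1078 and 1125 rescaled, and 839 and 240 at a mean level of at least 2. At P7, 3179 higher and 1802 lower were 1834 and 3176 rescaled, and 2055 and 641 at that level. With no filter, 1081 were lower in KO-labelled and 4499 in WT P7 cells. Of the 4 lists, 8 higher and 2 lower in KO-labelled cells became 5 and 5 rescaled, and 9 to 20 and 2 to 10 without a set: 20 were higher without KO-labelled set A, 18 without WT P3 set A and 14 without WT P3 set B. At P7, 12 higher and 11 lower became 10 and 19 rescaled, and 17 to 19 and 16 to 21 without a set, in part because fewer pairs have to share a sign. Above 5 RPM, 4.61 members per cell were detected in KO-labelled and 4.31 in WT P3 cells, against 6.10 and 6.07 above 1 RPM. The median r between members was 0.04 rescaled and 0.07 in deep cells, alternatives chosen after seeing the data. No paired analysis was possible because the labels do not explain the letters and no test was made. Depth limits Bbc3, Bak1 and Bcl2, most of whose cells had no read, and 1 sample per group leaves no measure of variation between animals.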
